A study of Mus musculus with 6 samples.

Results

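The genes described here code for the translation initiation factors, the proteins that bring a ribosome and an initiator methionyl-tRNA to the start codon of a messenger RNA. They were taken from the deposited count matrix by symbol: every gene whose name begins with Eif1 to Eif6, without Eif2s3x, Eif2s3y and pseudogenes, which left 54 of 37620 genes. By factor, 2 code for subunits of eIF2, 5 for eIF2B, 14 for eIF3, 16 for eIF4 proteins and their binding proteins, 4 for the kinases that phosphorylate eIF2, and 12 for other factors. The last, Eif2c5, fits the naming rule through a former name of the Argonaute family and is no initiation factor by that name. Per the rule, the gamma subunit of eIF2 (Eif2s3x and Eif2s3y) is left out, so eIF2 is described from its alpha and beta subunits alone.

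Hearts came from wild-type (WT) C57/BL6J mice in which myocardial blood flow was interrupted for 30 min and restored for 120 min, and RNA was taken from the apex. The 3 libraries of the vehicle group (IR) came from mice given the vehicles of yohimbine, an alpha-2 adrenergic antagonist, and of dexmedetomidine, an alpha-2 agonist used as a sedative. In the 3 libraries of the dexmedetomidine group (DIR), the mice had received the vehicle of yohimbine, then 10 µg/kg dexmedetomidine 30 min later, and surgery followed 20 min after that. Drugs went into the tail vein over at most 10 min. Neither a sham-operated nor a yohimbine-treated group is analysed here, and the ages and sexes of the mice, the timing of the vehicle injections and whether each library is 1 animal are not given in the labels. P-values therefore measure the spread between these libraries.

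Initiation usually starts when eIF2, loaded with GTP and the initiator tRNA, joins eIF1, eIF1A, eIF3 and eIF5 on the small ribosomal subunit. The eIF4F complex, made of the cap-binding eIF4E, the scaffold eIF4G and the helicase eIF4A, recruits this assembly to the capped end of the messenger RNA. Initiation is held back at both steps: eIF2 kinases phosphorylate eIF2 alpha, which blocks its recycling by eIF2B, and hypophosphorylated 4E-binding proteins sequester eIF4E. Both act on proteins, so transcript levels do not report them. Ischaemia and reperfusion are known triggers of eIF2 phosphorylation.

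Gene counts summed to between 42691399 and 56615882 per library, and the 54 genes took up 0.508% to 0.598% of them. Transcripts of the mitochondrial genome made up 22.01% to 25.2% of gene counts in the vehicle libraries and 27.1% to 38.2% with dexmedetomidine. Reads aligned to more than 1 place were 28.0% to 31.4% of the vehicle libraries, 31.2% of dexmedetomidine replicate 1, and 39.5% and 39.4% of replicates 2 and 3. Of 12 cardiomyocyte markers 11 were above 0 in every library, while Tnnc1 was listed at 0 in all 6 libraries. Whether its reads were set aside in the counting as ambiguous or aligned to more than 1 place was not tested, so that 0 is not read as absence. Levels in CPM (counts scaled to a common library total) summed over the 12 cardiomyocyte markers ran from 61876 to 72598 in the vehicle and from 56721 to 59632 with dexmedetomidine. Sums of 8 fibroblast markers ran from 943 to 1050 and from 1159 to 1368, and of 6 mural cell markers from 946 to 1070 and from 1254 to 1450. With dexmedetomidine 8 of 11 tested cardiomyocyte markers were lower, 6 of 8 fibroblast markers higher and 2 of 6 mural markers higher. For the sums of these 3 lists the groups did not overlap (exact two-sided permutation p = 0.1, the smallest that 3 against 3 libraries allow, 0.333 adjusted over 10 lists). The sums of the other 7 lists overlapped: endothelial, macrophage, neutrophil, lymphocyte, erythroid, adipocyte and atrial markers. Of their tested markers, 4 endothelial were higher and 4 lower, 2 macrophage higher and 6 lower, and 6 neutrophil higher and 0 lower. For lymphocyte and erythroid markers 2 were higher and 1 lower in each list. For adipocyte markers 0 were higher and 1 lower, and for atrial markers 1 and 1. The part of these differences in the results below was not tested, and in bulk tissue fewer cells of a type and less RNA per cell cannot be told apart.

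Of the 54 genes, 51 passed the low-count filter and entered the test with the other genes, 14738 in all. Eif4e1b, an oocyte-type cap-binding protein gene, and Eif2c5 had no count in any library. Eif4ebp3, a 4E-binding protein gene, had 12, 4 and 1 counts in vehicle replicates 1, 2 and 3 and 2, 5 and 1 with dexmedetomidine.

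No initiation factor gene passed an adjusted p of 0.05 in edgeR's quasi-likelihood test of dexmedetomidine against vehicle, and no gene of the whole table did (0% called). The lowest edgeR adjusted p of these genes was 0.101, which was also the lowest of the table. At an unadjusted p under 0.05, which 21.5% of all tested genes met, 9 of the 51 were higher and 7 lower after dexmedetomidine, 17.6% and 13.7%, against 12.5% and 9.03% of all tested genes. Groups did not overlap for 27.6% of all tested genes. For 10 of the 51 all 3 dexmedetomidine libraries lay above all 3 vehicle libraries and for 7 below, 19.6% and 13.7%, against 15.6% and 12.0% of all tested genes. The median log2 fold change (dexmedetomidine minus vehicle) of the 51 was -0.02, with 25 above 0 and 26 below, and that of all tested genes was 0.0032. The family was thus split between the directions. Whether its shares differ from those of the table was not tested.

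DESeq2, a second count test, called 8 of the 51 at an adjusted p of 0.05, against 9.43% of all genes it gave an adjusted p. Of these Eif5b, Eif2s2, Eif3j1, Eif2ak2, Eif3a and Eif5 were higher (11.8% of the members, 6.53% of all genes) and Eif4ebp1 and Eif3g lower (3.92% and 2.90%). Limma-voom (with weights for library quality) called 14, against 14% of all genes: those 8 and 6 more, in all 8 higher and 6 lower (15.7% and 11.8% of the members), against 8.79% and 5.20% of all genes. Without vehicle replicate 3, edgeR called Eif5b, Eif3j1, Eif2s2, Eif2ak2 and Eif3a as higher and Eif4ebp1 as lower, 9.80% and 1.96% of the members against 6.13% and 2.19% of the table (8.31% in both directions). With no low-count filter it called Eif2s2 and Eif3j1 as higher and Eif3g and Eif4ebp1 as lower, against 1.35% and 0.528% of the table (1.88% in both). With the replicate number as a block it called 4 members higher and 1 lower, against 3.86% and 0.455% (4.32% in both). With the block and the GC and length trend removed it called Eif5b alone, as higher, against 0.455% higher and 0.0814% lower (0.536% in both).

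**Figure D1:**
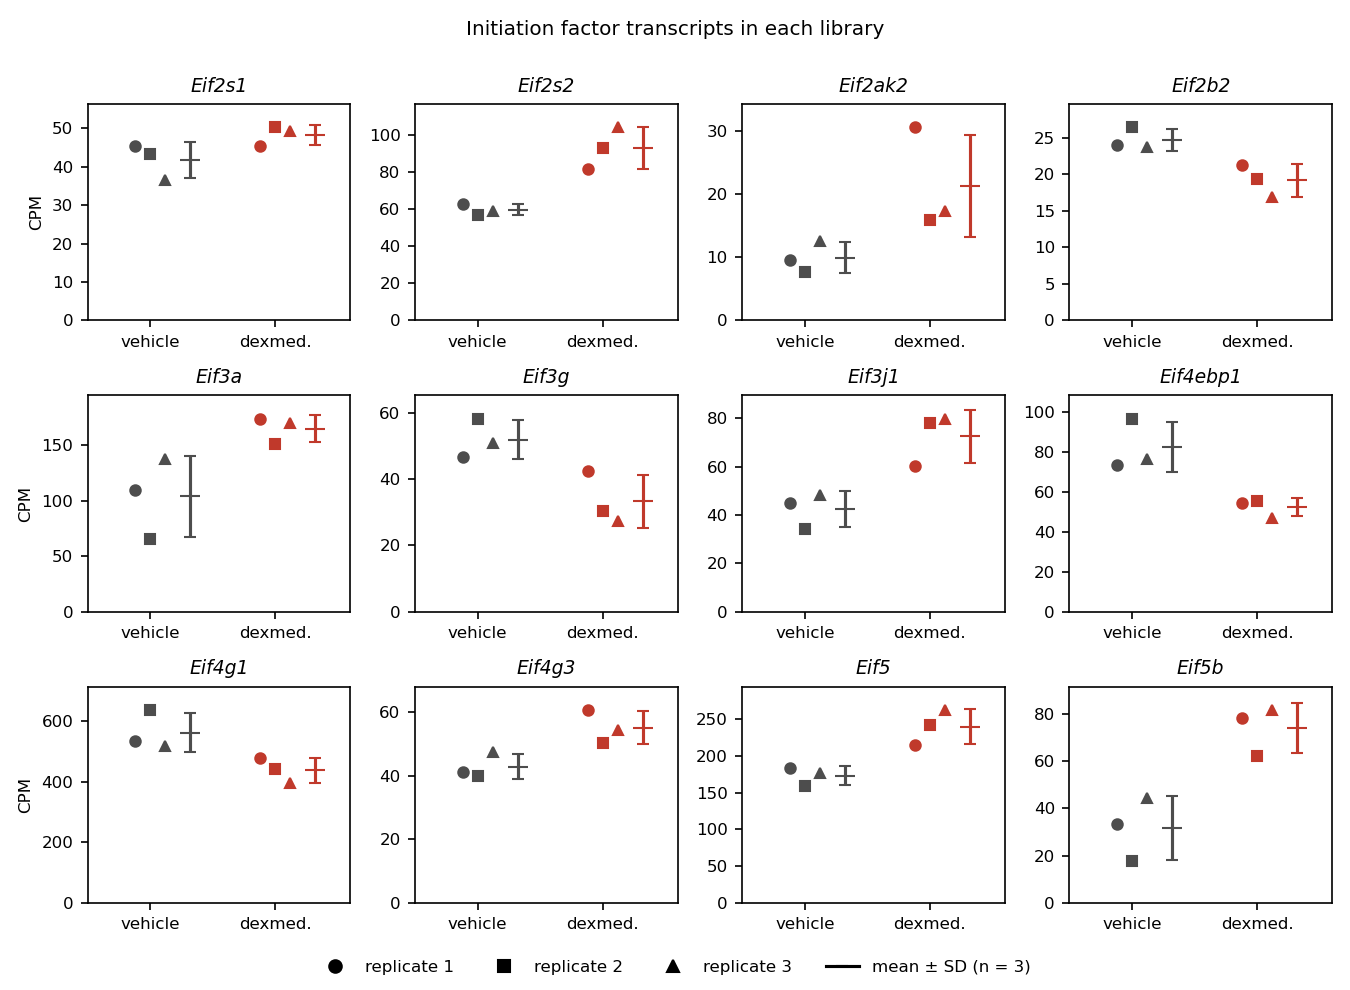
Expression of 12 initiation factor genes in each library, in CPM on a linear axis from 0 (points, shaped by replicate; bars, mean ± SD, n = 3). The groups do not overlap for 11 of the 12, and they overlap for Eif2s1. These 12 do not stand for the family, in which groups did not overlap for 17 of the 51 tested genes. Among all tested genes the share was 27.6%.

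Of the eIF2 subunit transcripts, that of the beta subunit had separate groups and that of the alpha subunit did not. Eif2s2 (ENSMUSG00000074656), which codes for the beta subunit that contacts eIF5 and eIF2B, stood at 62.7, 56.8 and 59.2 CPM in replicates 1, 2 and 3 of vehicle and at 81.6, 93.0 and 104.02 CPM with dexmedetomidine. Every dexmedetomidine library was above every vehicle library, and the 3 vehicle values lay close together. Its log2 fold change was 0.64 (SE 0.13), or 1.56-fold (edgeR adjusted p = 0.101, DESeq2 adjusted p = 0.00303). Eif2s1 (ENSMUSG00000021116), the alpha subunit that carries the regulatory serine, stood at 45.5, 43.3 and 36.6 CPM after vehicle and at 45.3, 50.2 and 49.4 CPM after dexmedetomidine. These groups overlapped through vehicle replicate 1 and dexmedetomidine replicate 1, and the log2 fold change was 0.21 (SE 0.13, edgeR adjusted p = 0.366). Per kilobase of the deposited gene length, the ratio of Eif2s2 to Eif2s1 was 0.695, 0.661 and 0.815 in the vehicle libraries and 0.909, 0.933 and 1.06 with dexmedetomidine. By this measure Eif2s2 was the lower of the pair in all 3 vehicle libraries and exceeded Eif2s1 only in dexmedetomidine replicate 3. That order rests on the division by length, since in CPM Eif2s2 was above Eif2s1 in every library. Both transcripts are poor in G and C (38.7% for Eif2s2 and 40.8% for Eif2s1), and fold changes in this comparison followed GC content, as given further on. With each library's trend with GC content and length removed, Eif2s2 was at -0.05 and Eif2s1 at -0.31.

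The guanine nucleotide exchange factor eIF2B, which reloads eIF2 with GTP, has 5 subunits, and their fold changes had both signs. Eif2b1 (alpha, a regulatory subunit) was higher and the other 4 were lower, with a median log2 fold change of -0.14. Eif2b2 (ENSMUSG00000004788), the beta subunit, measured 23.9, 26.4 and 23.7 CPM after vehicle and 21.3, 19.3 and 16.8 CPM after dexmedetomidine. Its groups did not overlap, with a log2 fold change of -0.37 (SE 0.14, edgeR adjusted p = 0.171). Eif2b1 (ENSMUSG00000029388) measured 19.1, 16.3 and 14.1 CPM after vehicle and 19.7, 20.9 and 20.9 CPM after dexmedetomidine. Here the dexmedetomidine libraries were all above the vehicle libraries, by a margin of under 1 CPM at the closest pair, and the log2 fold change was 0.31 (SE 0.15, edgeR adjusted p = 0.256). Eif2b4, the delta subunit, had a log2 fold change of -0.17 with no overlap between groups (edgeR adjusted p = 0.424), and Eif2b5, the catalytic epsilon subunit, one of -0.14 with overlap (0.510). With the GC and length trend removed Eif2b1 was at 0.35, Eif2b2 at -0.14, Eif2b4 at 0.11 and Eif2b5 at 0.02, so that Eif2b4 and Eif2b5 changed sign. Per kilobase in the vehicle group, levels ran from 1.51 CPM for Eif2b3, the gamma subunit, to 16.3 CPM for Eif2b5.

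Among the 4 eIF2 kinase genes, Eif2ak2 alone had separate groups. Eif2ak2 (ENSMUSG00000024079) codes for PKR, the double-stranded RNA-activated kinase and an interferon-inducible gene. It measured 9.51, 7.72 and 12.6 CPM in the vehicle replicates and 30.6, 16.0 and 17.4 CPM with dexmedetomidine. All dexmedetomidine values were higher than all vehicle values, and dexmedetomidine replicate 1 was the highest by far. Mean levels were 9.94 ± 2.46 and 21.3 ± 8.06 CPM (SD, n = 3), a log2 fold change of 1.10 (SE 0.28, edgeR adjusted p = 0.109, DESeq2 adjusted p = 0.00257). Without dexmedetomidine replicate 1 the log2 fold change was 0.74. With the GC and length trend removed it was 0.85 and the groups still did not overlap.

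For the remaining kinase genes the difference was smaller than the spread between libraries. Eif2ak3 (PERK, the kinase of endoplasmic reticulum stress) stood at 11.1 ± 2.13 CPM after vehicle and 11.3 ± 0.884 CPM after dexmedetomidine (SD, n = 3), a log2 fold change of 0.02 with an SE of 0.18. Eif2ak4 (GCN2, the sensor of amino acid shortage) stood at 14.2 ± 1.88 and 14.8 ± 1.08 CPM, and Eif2ak1 (HRI, the haem-regulated kinase) at 27.1 ± 1.94 and 27.6 ± 1.66 CPM (SD, n = 3). Log2 fold changes were 0.05 (SE 0.15) for Eif2ak4 and 0.03 (SE 0.12) for Eif2ak1. Per kilobase in the vehicle group, Eif2ak1 was the highest of the 4 at 4.78 CPM, followed by Eif2ak3 at 2.05, Eif2ak2 at 1.94 and Eif2ak4 at 1.91 CPM, the last 3 within their spread. In the dexmedetomidine group Eif2ak2, at 4.17 CPM per kilobase, was second to Eif2ak1 at 4.86.

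Since Eif2ak2 is interferon-inducible, the promoters of the family were searched for the core of the interferon-stimulated response element, GAAA, any 2 bases and GAAA on either strand, in windows from 250 bases before to 50 bases after each RefSeq transcription start (build GRCm38.p6). Of 54 genes, 42 had a window, some more than 1, giving 55 windows. The motif was in 3 of these 55, for Eif2ak2, Eif3a and Eif2s1, and in 3.44% of all 32851 windows. The windows are printed 5′ to 3′ on the strand of the gene, with the match in capitals. They set the gene with the clearest kinase difference beside the only other genes, of the 42 with a window, that hold the same letters. They lie at chr17:78882523-78882822 (minus strand), chr19:60790644-60790943 (minus strand) and chr12:78861822-78862121 (plus strand).
Eif2ak2: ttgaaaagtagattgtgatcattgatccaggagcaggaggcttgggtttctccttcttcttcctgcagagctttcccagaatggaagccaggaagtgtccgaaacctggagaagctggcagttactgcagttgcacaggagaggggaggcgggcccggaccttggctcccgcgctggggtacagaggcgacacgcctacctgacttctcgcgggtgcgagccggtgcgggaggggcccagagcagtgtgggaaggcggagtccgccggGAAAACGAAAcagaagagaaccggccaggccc
Eif3a: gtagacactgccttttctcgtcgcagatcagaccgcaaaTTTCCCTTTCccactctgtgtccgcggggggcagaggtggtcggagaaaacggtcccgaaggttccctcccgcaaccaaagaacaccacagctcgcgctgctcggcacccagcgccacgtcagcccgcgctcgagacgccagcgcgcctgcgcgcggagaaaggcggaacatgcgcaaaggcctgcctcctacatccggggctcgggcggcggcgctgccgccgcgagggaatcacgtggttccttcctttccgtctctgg
Eif2s1: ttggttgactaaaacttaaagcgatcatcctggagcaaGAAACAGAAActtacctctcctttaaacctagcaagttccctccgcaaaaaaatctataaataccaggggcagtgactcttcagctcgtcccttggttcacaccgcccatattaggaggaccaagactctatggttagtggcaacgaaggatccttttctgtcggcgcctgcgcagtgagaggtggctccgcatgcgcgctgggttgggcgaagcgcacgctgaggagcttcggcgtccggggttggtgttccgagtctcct
Counted from the start as position 1, the match begins at position 19 in Eif2ak2, at -211 in Eif3a, where it lies on the other strand, and at -212 in Eif2s1. The log2 fold changes of the 3 genes were 1.10, 0.66 and 0.21, and 0.85, 0.41 and -0.31 with the GC and length trend removed. An ATF4-type element, TGATGNAA on either strand, was in none of the 55 windows and in 3.97% of all windows. The E-box CACGTG was in 12 of the 55, of 10 genes, and in 7.15% of all. These matches describe the letters only, and no binding was measured.

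Subunits of eIF3, the largest initiation complex, went in both directions, with 5 of 14 above 0 and a median log2 fold change of -0.09. With the GC and length trend removed, 2 of 14 were above 0 and the median was -0.08. Eif3j1 (ENSMUSG00000027236), a loosely bound subunit at the decoding site, measured 44.8, 34.05 and 48.3 CPM after vehicle and 60.1, 77.99 and 79.9 CPM after dexmedetomidine. No dexmedetomidine library reached down to the vehicle range, and the log2 fold change was 0.78 (SE 0.17), or 1.71-fold (edgeR adjusted p = 0.101, DESeq2 adjusted p = 0.00284). With the GC and length trend removed it was 0.35, again with no overlap. Its near-identical copy Eif3j2 was rare, at 1.55 ± 0.299 and 2.13 ± 0.269 CPM (SD, n = 3), and reads common to both copies may have gone uncounted.

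Eif3a (ENSMUSG00000024991), the scaffold subunit, measured 109.7, 65.1 and 137.7 CPM in the vehicle replicates and 174.1, 151.0 and 169.8 CPM with dexmedetomidine. The groups did not overlap, but vehicle replicate 2 was far below replicate 3, and without it the log2 fold change went from 0.66 (SE 0.24, edgeR adjusted p = 0.165) to 0.41. In the other direction, Eif3g (ENSMUSG00000070319), an RNA-binding subunit involved in scanning, measured 46.5, 58.3 and 51.05 CPM after vehicle and 42.4, 30.2 and 27.3 CPM after dexmedetomidine. All 3 dexmedetomidine values were lower, with replicate 1 nearest the vehicle range, and the log2 fold change was -0.64 (SE 0.18, edgeR adjusted p = 0.111, DESeq2 adjusted p = 0.0185). Eif3b (ENSMUSG00000056076), which with Eif3a nucleates the complex, measured 130.3, 138.7 and 121.3 CPM after vehicle and 106.7, 102.6 and 95.9 CPM after dexmedetomidine. Its groups were also separate, with a log2 fold change of -0.36 (SE 0.12, edgeR adjusted p = 0.132). With the GC and length trend removed, Eif3a was at 0.41 and Eif3b at -0.10, both with overlapping groups, while Eif3g was at -0.36 with separate groups.

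The other 9 eIF3 genes had overlapping groups and log2 fold changes between -0.24 for Eif3d and 0.34 for Eif3e. With the GC and length trend removed, Eif3e was at -0.55, the lowest of the eIF3 genes, and Eif3m went from 0.19 to -0.46. Eif3f was then at -0.20 with separate groups. Per kilobase in the vehicle group, Eif3h was highest at 124.2 CPM, Eif3k, Eif3e, Eif3f, Eif3c, Eif3g and Eif3b lay between 43.8 and 62.8 CPM, Eif3a was at 20.1 CPM, Eif3j1 at 7.27 CPM and Eif3j2 lowest at 0.653 CPM. Neighbours in that middle run, from Eif3k to Eif3b, had overlapping libraries, as the plot of levels per kilobase shows.

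**Figure D2:**
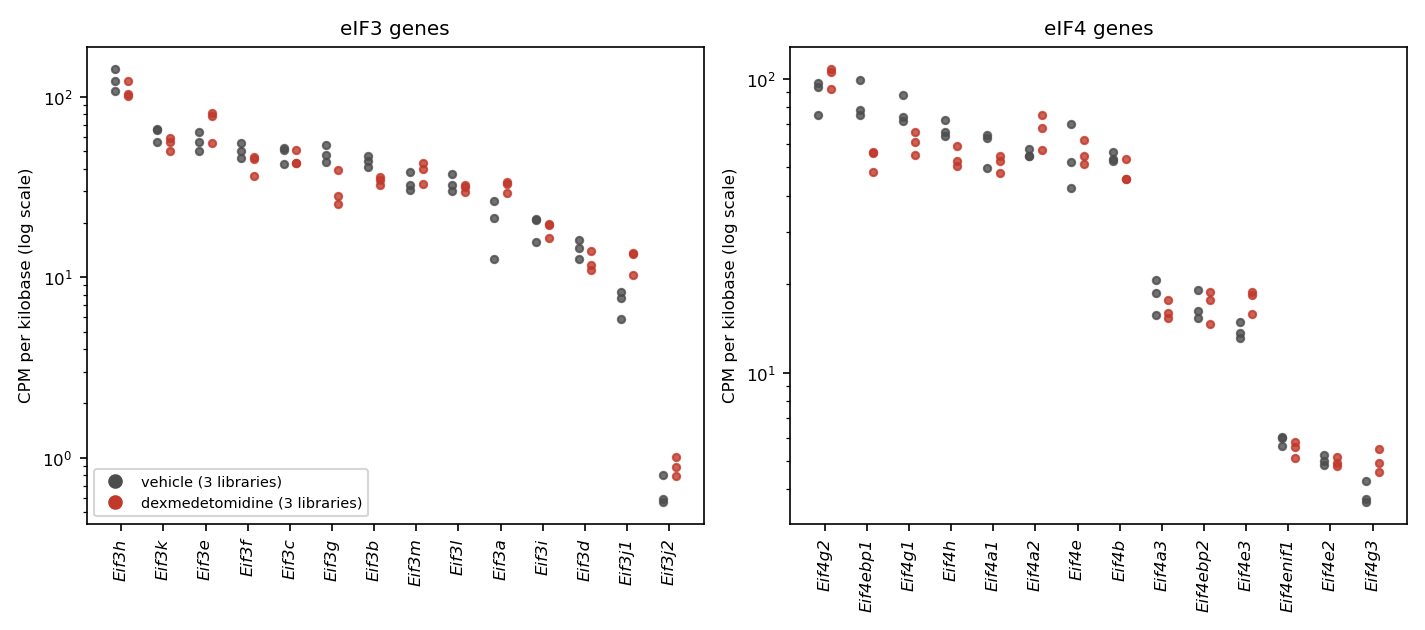
Levels of the 14 tested eIF3 genes and 14 tested eIF4 genes per kilobase of deposited gene length (CPM per kilobase, log axis; each point 1 library, 3 per group; genes ordered by the vehicle mean). In the eIF3 panel Eif3h leads and Eif3j2 is lowest, and in the eIF4 panel Eif4ebp1 is second in the vehicle group.

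Among eIF4 genes, the clearest difference was in Eif4ebp1 (ENSMUSG00000031490), which codes for the repressor 4E-BP1 that sequesters eIF4E when mTOR activity is low. It measured 73.8, 96.9 and 76.9 CPM in the vehicle replicates and 54.8, 55.3 and 47.2 CPM with dexmedetomidine. The dexmedetomidine libraries lay close together and below the whole vehicle range. Means were 82.5 ± 12.6 and 52.4 ± 4.52 CPM (SD, n = 3), a log2 fold change of -0.65 (SE 0.14), that is 1.57-fold lower (edgeR adjusted p = 0.101, DESeq2 adjusted p = 0.00376). With 1 library left out at a time the log2 fold change lay between -0.73 and -0.52. Its GC content of 48.2% is in the third of 5 equal bins of genes by GC content, whose median log2 fold change was -0.01, and with the GC and length trend removed it was at -0.68.

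The partner it binds, Eif4e (ENSMUSG00000028156), measured 149.8, 201.3 and 121.9 CPM after vehicle and 147.8, 178.2 and 157.1 CPM after dexmedetomidine. The groups overlapped widely and the log2 fold change was 0.03 (SE 0.18, edgeR adjusted p = 0.945). Per kilobase, Eif4ebp1 transcripts stood to Eif4e transcripts as 1.45, 1.41 and 1.85 in the vehicle replicates and as 1.09, 0.912 and 0.883 with dexmedetomidine. By this measure Eif4ebp1 was the higher of the pair in all 3 vehicle libraries and in dexmedetomidine replicate 1 only among the treated. That order rests on the division by length, since in CPM Eif4ebp1 was below Eif4e in every library. With the GC and length trend removed, the log2 fold changes were -0.68 for Eif4ebp1 and -0.59 for Eif4e, so the difference between the pair rests on values without that step. Eif4ebp2, the second binding protein gene, stood at 30.1 ± 3.51 and 30.4 ± 3.81 CPM (SD, n = 3), a log2 fold change of 0.01 with an SE of 0.14. Per kilobase Eif4ebp1 exceeded Eif4ebp2 by 5.04 ± 0.993 times after vehicle and 3.19 ± 0.624 times after dexmedetomidine (SD, n = 3).

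The scaffold genes of eIF4F went in different directions. Eif4g1 (ENSMUSG00000045983), the main scaffold, measured 534.2, 638.2 and 517.1 CPM after vehicle and 477.6, 441.1 and 396.2 CPM after dexmedetomidine. These groups did not overlap, with a log2 fold change of -0.36 (SE 0.13, edgeR adjusted p = 0.159). Eif4g3 (ENSMUSG00000028760), its paralogue, measured 41.1, 40.02 and 47.4 CPM after vehicle and 60.7, 50.5 and 54.3 CPM after dexmedetomidine. Again without overlap, its log2 fold change was 0.37 (SE 0.13, edgeR adjusted p = 0.145). With the GC and length trend removed, Eif4g1 was at -0.24 and Eif4g3 at 0.36, both with separate groups. Per kilobase Eif4g3 remained far below Eif4g1, at 3.88 against 77.9 CPM after vehicle and 4.996 against 60.6 CPM after dexmedetomidine.

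Of the helicase genes, Eif4a1 measured 255.02 ± 34.5 and 223.6 ± 15.8 CPM and Eif4a2 296.8 ± 9.53 and 356.1 ± 47.2 CPM (vehicle and dexmedetomidine, SD, n = 3). Their log2 fold changes were -0.19 (SE 0.14) and 0.26 (SE 0.13), and the groups overlapped for each. Both were lower, at -0.31 and -0.29, with the GC and length trend removed. Without that step, the ratio of Eif4a1 to Eif4a2 per kilobase was 1.15, 1.11 and 0.913 in the vehicle replicates and 0.953, 0.701 and 0.702 with dexmedetomidine, so the 2 groups overlapped in the ratio as well. Reads common to Eif4a1 and its pseudogenes may be missing from its count. Eif4e3, a cap-binding homologue, stood at 33.1, 34.3 and 37.5 CPM after vehicle and 39.7, 46.3 and 47.2 CPM after dexmedetomidine, with a log2 fold change of 0.34 (SE 0.12, edgeR adjusted p = 0.155) and 0.16 with the trend removed.

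Among the factors outside these complexes, Eif5b showed the largest log2 fold change of the 51 genes. Eif5b (ENSMUSG00000026083) codes for the GTPase that joins the ribosomal subunits at the end of initiation. It measured 33.2, 17.6 and 44.2 CPM in the vehicle replicates and 78.2, 62.0 and 81.7 CPM with dexmedetomidine. Even the lowest dexmedetomidine library was above the highest vehicle library, while the vehicle libraries themselves spread widely. Means were 31.7 ± 13.4 and 74.0 ± 10.5 CPM (SD, n = 3), a log2 fold change of 1.22 (SE 0.30), or 2.33-fold (edgeR adjusted p = 0.109, DESeq2 adjusted p = 0.000574). Without vehicle replicate 2, the lowest library, it was 0.93, and with the GC and length trend removed 0.89 with separate groups. In the GRCm38 annotation 1643 exon bases of Eif5b lie opposite exons of Rev1, whose own log2 fold change was 0.12 (edgeR unadjusted p = 0.554).

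Eif5 (ENSMUSG00000021282), the GTPase-activating protein of eIF2, measured 183.7, 159.1 and 177.6 CPM after vehicle and 214.9, 242.5 and 263.1 CPM after dexmedetomidine. The groups were separate, with a log2 fold change of 0.47 (SE 0.13, edgeR adjusted p = 0.109, DESeq2 adjusted p = 0.0336). Its value of 0.47 equalled the median of genes in the lowest GC bin, and with the trend removed it was 0.02. Eif2a, an alternative carrier of initiator tRNA that is not a subunit of eIF2, had a log2 fold change of 0.34 (SE 0.13, edgeR adjusted p = 0.173) and -0.23 with the trend removed. Eif6, which keeps the ribosomal subunits apart, was at -0.49 (SE 0.20, edgeR adjusted p = 0.194) and Eif5a, the hypusine-carrying factor, at -0.33 (SE 0.15, edgeR adjusted p = 0.235), both with overlapping groups. With the trend removed they were at -0.18 and -0.09, and without vehicle replicate 2, the highest library for both, at -0.32 and -0.19. Eif1, which guards start codon choice, was the highest of all 51 per kilobase, at 278.9 CPM after vehicle and 255.7 CPM after dexmedetomidine. It had a log2 fold change of -0.13 (SE 0.14), and its paralogue Eif1b one of -0.12 (SE 0.15).

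**Figure D3:**
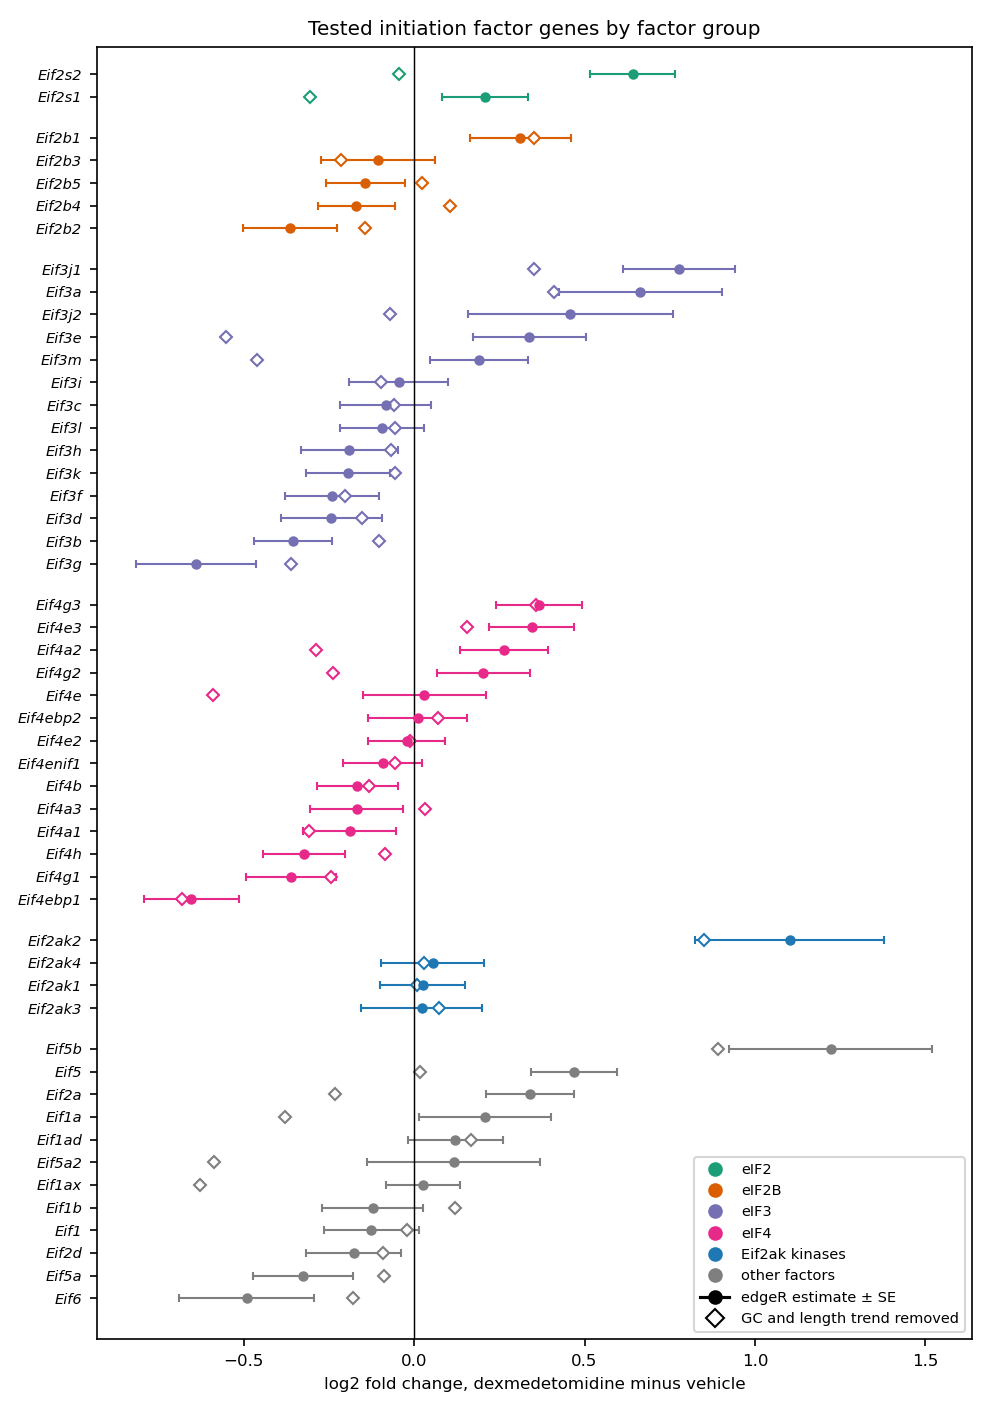
Log2 fold change, dexmedetomidine minus vehicle, of the 51 tested genes by factor group (filled circles, edgeR estimate; bars, ± SE; open diamonds, estimate with each library's GC and length trend removed). Eif5b and Eif2ak2 lie above 1, Eif4ebp1 is lowest, and 16 genes have the circle and the diamond on opposite sides of 0.

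The fold changes followed the base composition of the transcripts. Across the 51 genes, log2 fold change and GC content of the longest annotated transcript had a Spearman rho of -0.75, and across 14329 tested genes with a GC value one of -0.63. Genes share libraries and are not independent replicates, so these are descriptions. When all tested genes were put into 5 equal bins of GC content, 16 of the 51 fell into the lowest bin and all 16 were above 0, with a median log2 fold change of 0.30 against 0.47 for all genes of the bin. In the next bins, from low to high GC, 2 of 5, 6 of 17, 1 of 9 and 0 of 4 were above 0. Medians there were -0.05, -0.09, -0.19 and -0.42 for initiation factor genes and 0.15, -0.01, -0.15 and -0.30 for all genes. In each bin the median of the family lay below that of all genes, and from low to high GC 5, 2, 6, 3 and 1 members lay above the median of their bin.

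**Figure D4:**
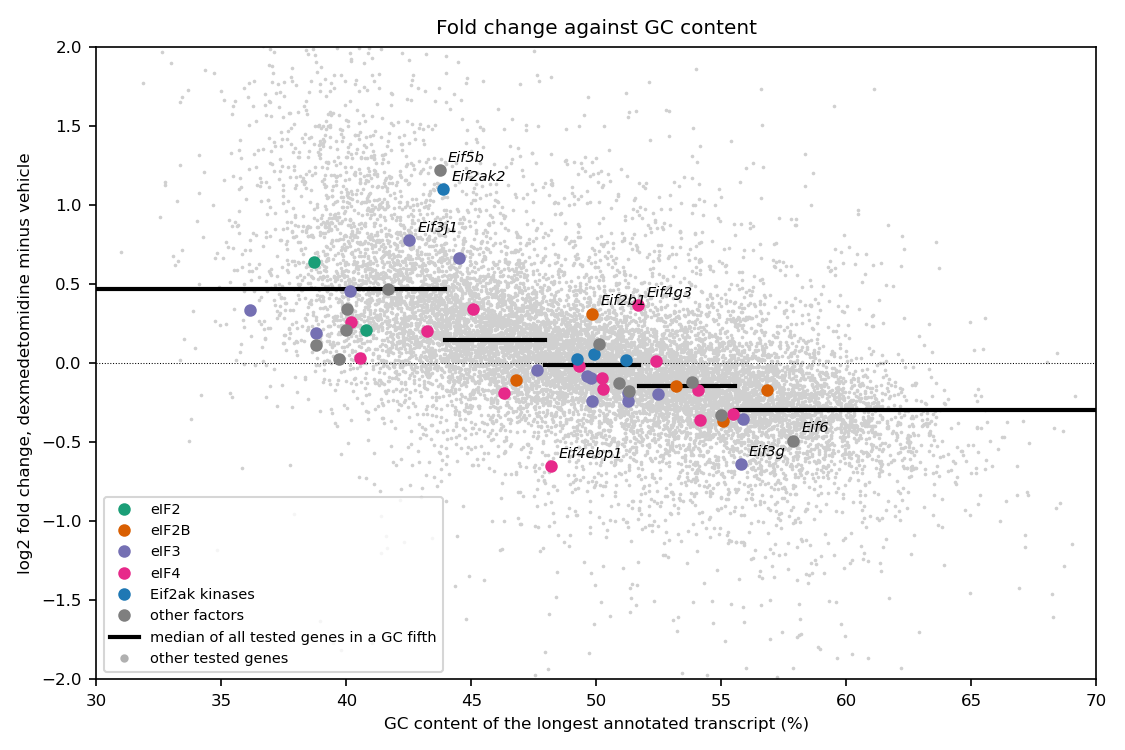
Log2 fold change against the GC content of the longest annotated transcript, in percent, for tested genes (grey) and the 51 initiation factor genes (coloured by factor group); black bars mark the median of all tested genes in each of 5 bins of GC content. Of 14329 genes 98 lie outside the plotted range. Family members run from upper left to lower right with the other genes, and Eif5b, Eif2ak2, Eif4ebp1, Eif4g3 and Eif2b1 are among those that lie off that slope.

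With each library's trend with GC content and length removed, edgeR again called none of the 51 and none of the table at an adjusted p of 0.05, and the lowest adjusted p was 0.305. At an unadjusted p under 0.05, 5 were then higher and 7 lower, 9.80% and 13.7% of the members, against 5.95% and 6.38% of all genes (12.3% in both directions). Groups did not overlap for 5 higher and 8 lower members, 9.80% and 15.7%, against 9.17% and 8.79% of all genes. Eif5b, Eif2ak2, Eif3j1, Eif4g3, Eif3g and Eif4ebp1 had an unadjusted p under 0.05 in the same direction with and without this step. Groups stayed apart in the same direction for these 6 and for Eif2b1, Eif2b2, Eif4g1 and Eif4h. An unadjusted p under 0.05 was met only with this step by Eif2b1 (0.35) as higher. As lower it was met only with this step by Eif1ax (-0.63), Eif5a2 (-0.59), Eif3e (-0.55), Eif3m (-0.46) and Eif4a1 (-0.31). Groups became separate, with dexmedetomidine lower, for Eif1ax, Eif5a2 and Eif3f. A sign change was seen for 16 of the 51, among them Eif4e, which went from 0.03 to -0.59.

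Genes that act on or beside the initiation factors were taken from 4 lists, in none of which edgeR called a gene at an adjusted p of 0.05. DESeq2 called Rps6kb1 and Rictor as higher of 16 genes of the mTOR and MNK list (adjusted p = 0.000466 and 0.0137). Of 12 tested genes of the integrated stress response list it called Dnajc3 as higher (0.0303). Of 15 elongation and termination genes it called Dohh and Eef2 as lower (0.0297 and 0.0465), and of 16 further initiation partners none. Of all genes with a DESeq2 adjusted p, 6.53% were called higher and 2.90% lower. The counts at an unadjusted p stand against 12.5% higher and 9.03% lower of all tested genes, and, with the GC and length trend removed, against 5.95% and 6.38%. In the input from mTOR and the MNK kinases, 2 of 16 genes were higher and 4 lower at an unadjusted edgeR p under 0.05 (median log2 fold change -0.11). With the trend removed 3 were higher and 0 lower, and the median was 0.02. Rps6kb1, the kinase that phosphorylates ribosomal protein S6 and eIF4B, had a log2 fold change of 1.04 (SE 0.21, edgeR adjusted p = 0.101), with 13.999, 12.3 and 20.5 CPM after vehicle and 33.7, 26.5 and 36.4 CPM after dexmedetomidine. It was at 0.39 with the GC and length trend removed. Akt1s1, which codes for the mTORC1 inhibitor PRAS40, was at -0.44 (SE 0.13, edgeR adjusted p = 0.115) and at -0.04 with the trend removed.

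In the list of the eIF2 phosphatase and the integrated stress response, 3 of 12 tested genes were higher and 2 lower at an unadjusted edgeR p under 0.05 (median -0.31). With the trend removed 0 were higher and 0 lower (median -0.19). Dnajc3, an inhibitor of eIF2 kinases, was at 0.50 (SE 0.13, edgeR adjusted p = 0.108) and the adaptor gene Nck1 at 0.46 (SE 0.15, edgeR adjusted p = 0.130), and at 0.13 and -0.17 with the trend removed. Ppp1r15a, the inducible phosphatase subunit GADD34, measured 61.3, 107.9 and 40.3 CPM after vehicle and 46.9, 36.2 and 41.2 CPM after dexmedetomidine. Vehicle replicate 2 was the high library, and without it the log2 fold change went from -0.75 (SE 0.32, edgeR adjusted p = 0.217) to -0.30. Atf4, the transcription factor gene whose messenger RNA is translated when eIF2 is phosphorylated, was at -0.50 (SE 0.27, edgeR adjusted p = 0.323) with all libraries and at -0.24 without that replicate, and Ddit3, its target CHOP, at -0.23 (SE 0.32) and 0.21.

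Partners of initiation outside the Eif names, such as poly(A)-binding proteins and helicases, had 13 of 16 genes above 0 (50.3% of all tested genes were), and 9 of 16 with the trend removed. At an unadjusted edgeR p under 0.05, 2 were higher and 1 lower, and 1 and 2 with the trend removed. The helicase gene Ddx3x was at 0.41 (SE 0.14) and the poly(A)-binding protein gene Pabpc4 at -0.39 (SE 0.13, edgeR adjusted p = 0.145 for both), and at -0.11 and -0.21 with the trend removed. Of 15 elongation and termination genes, 1 was higher and 4 lower by that threshold (median -0.18), and 1 and 1 with the trend removed (median -0.09). Dohh, which completes hypusine on eIF5A, was at -0.55 (SE 0.15, edgeR adjusted p = 0.112), and the elongation factor gene Eef2 at -0.40 (SE 0.12, edgeR adjusted p = 0.118), and with the trend removed at -0.09 and -0.12.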

How the data were processed

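The authors deposited 1 table of raw read counts per gene, unnormalised, with a column of gene lengths. Trim Galore and HTSeq, with build mm9, are named per the submitters' processing notes; the aligner, annotation, strand setting and versions: not given in the sources used here. Symbols came from a table of gene names, in which 32897 of 37620 identifiers had one, and GC content from GENCODE M21 (GRCm38). Coordinates are given for RefSeq's promoter windows alone (GRCm38.p6), not for genes in the build of the counts. In the GENCODE annotation 21 of the 51 tested members share exon bases with another gene, so without stated strand their counts are uncertain. The 5 summary rows of the table stayed out of library sizes: reads aligned to more than 1 place (28.0% to 39.5% of reads), ambiguous reads (1.83% to 2.37%), reads outside genes (2.33% to 3.63%) and 2 rows at 0. All pairs of libraries differed beyond sampling noise (chi-square per degree of freedom 29.02 to 446). The closest pair was dexmedetomidine replicates 2 and 3. Dexmedetomidine replicate 1 was closer to vehicle replicates 3 (58.5) and 1 (68.0) than to dexmedetomidine replicates 2 (107.9) and 3 (133.2). From vehicle replicate 2 it was further (185.3).

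The test was that of edgeR 4.0.16 in R 4.3.3 (robust quasi-likelihood, TMM, filterByExpr), with Benjamini-Hochberg adjustment over 14738 genes and a threshold of 0.05. SE is the absolute log2 fold change over the square root of F. CPM use TMM-scaled library sizes. The trend removal fits each library's log2 CPM deviations (prior count 2) by loess (span 0.3) on GC content, then transcript length, as edgeR offsets. Alternatives were DESeq2 1.42.0 and its size factors, limma-voom (limma 3.58.1), omission of the filter, a filter on mean CPM (minimum 5), a replicate block and leaving out each library. Genes named by rule were, per factor group, the 3 with the smallest p, all kinases and 15 members fixed by role. Also named by rule were 2 per neighbouring list, and Atf4, Ddit3, Ppp1r15a and Eef2. Others were named after their values were seen: Rev1, Eif3d, Eif3e and genes given only by level, range, call, promoter match, or value with the trend removed or a library left out. Members and lists were chosen with earlier results of these data known.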

Additional observations from a re-analysis of the deposited data

How the results depend on the processing

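The count of genes called in the whole table at an adjusted p of 0.05 was 0 in edgeR with TMM, with the size factors of DESeq2, with a mean CPM of at least 5 and with the GC and length trend removed. It was 406 with no filter, 1247 in DESeq2 and 2063 in limma-voom, and 0 to 1251 with 1 library left out, the highest without vehicle replicate 3, 7 without dexmedetomidine replicate 1 and 5 without dexmedetomidine replicate 2. Of initiation factor genes, 4 were called with no filter, 8 in DESeq2, 14 in limma-voom and 0 to 6 with 1 library left out; the cause of these differences was not tested. The labels do not say that replicate numbers pair libraries, and same-numbered libraries had correlations of deviations of -0.055, 0.036 and 0.15. With the replicate block edgeR called 636 genes, 5 of them initiation factors, and 79 and 1 with the block and the trend removed. Only the libraries numbered 3 correlated best with their own number in both groups. At an unadjusted p under 0.05 there were 8 to 18 members with 1 library left out, against 16 with all. The lowest counts were 10 without dexmedetomidine replicate 2 and 8 without replicate 3. Groups were separate for 19 to 30 members, against 17 with all. The highest counts were 30 without vehicle replicate 3 and 28 without dexmedetomidine replicate 1. Shares of all tested genes were not counted for these settings. Groups also separate more easily when a library is left out, so these counts are not read as a result about the members. With the trend removed, and with the block as well, median log2 fold changes were -0.18 and -0.16 for eIF2, 0.0233 and 0.0235 for eIF2B, -0.0893 and -0.0877 for other factors and -0.0715 and -0.0735 for all members. With 1 library left out, medians ran from -0.17 to -0.0135 for eIF3, 0.0267 to 0.0644 for other factors and -0.0763 to 0.0279 for all members. With the trend removed 16 of the 51 members changed sign. Among the genes named by rule, with the trend removed, then with the block too, signs were reversed for Eif2s1 (-0.31, -0.29), Eif2s2 (-0.0453, -0.0343), Eif2a (-0.23, -0.23), Eif2b4 (0.11, 0.11), Eif2b5 (0.0233, 0.0235), Eif1b (0.12, 0.12), Eif3j2 (-0.0715, -0.0735), Eif4a2 (-0.29, -0.28), Eif4e (-0.59, -0.51), Ddx3x (-0.11, -0.11) and Nck1 (-0.17, -0.18), and in limma-voom for Eif2ak4 (-0.0373). With 1 library left out, log2 fold changes of genes named by rule crossed 0 for Eif2ak1 (-0.0360 to 0.0699), Eif2ak3 (-0.12 to 0.15), Eif2ak4 (-0.0168 to 0.16), Eif4e (-0.12 to 0.24), Eif4ebp2 (-0.0642 to 0.11) and Ddit3 (-0.46 to 0.21). Of the other members, Eif3i (-0.17 to 0.0298), Eif4e2 (-0.0536 to 0.0085) and Eif1ax (-0.0112 to 0.0548) crossed 0 as well. DESeq2, limma-voom and the block give no values per library, so separate groups were not counted there. Low depth limits Eif3j2, at 1.35 to 2.41 CPM with an SE of 0.30.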
